A study of Mus musculus with 20 samples.

Results

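Chemokines and chemokine receptors of the mouse cecum were described from RNA-seq counts. The family was taken as every row of the count table whose GENCODE mouse symbol begins with Ccl, Cxcl, Ccr or Cxcr followed by a digit, or is Cx3cl1 or Cx3cr1, which gave 56 of 19887 genes: 39 ligands and 17 receptors. C57BL/6 mice, 3 weeks old at the start, all received the Total Western Diet (TWD), a rodent diet built on American nutrient intakes, for 6 weeks. They then stayed on the TWD alone (0% RPS) or were given the TWD with 2, 5, or 10% raw potato starch (RPS, a resistant starch that is fermented by gut bacteria) for 3 more weeks, and RNA from sections of cecum was sequenced from 5 mice per diet, 20 in all. The mice carried no transgene, and every group, the 0% RPS group included, ate the same base diet. The labels do not say which mice shared a litter or cage, so that the p-values measure the spread between these mice.

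Chemokines are small secreted proteins that bind G protein-coupled receptors on leukocytes and steer them along concentration gradients. CC and CXC ligands differ in the spacing of their first cysteines, and Cx3cl1 (fractalkine) is made as a membrane-anchored protein whose chemokine domain can be shed. In the gut wall, Cxcl13, Ccl19, Ccl20, and Ccl21 are known for organizing lymphoid follicles through Cxcr5, Ccr7, and Ccr6. Ccr2 brings monocytes from the blood into tissue, and Ccl25 and Ccl28 are epithelial ligands for gut-homing lymphocytes and IgA plasma cells.

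Libraries held 14967798 to 42687283 counts, and 3 counts, the upper limit that a count of 0 allows, stood for 0.0698 to 0.190 CPM (counts scaled to the size of the library), depending on the library. This limit covers counting error only. As a check that the samples were gut mucosa, 8 epithelial genes, all of them tested, together averaged 13500 to 15300 CPM in the 4 diets, which does not tell cecum from other gut segments. In 3 mice (mouse 5 at 0% RPS, mouse 3 at 2% RPS, and mouse 4 at 5% RPS) 13% to 15.4% of counts came from mitochondrial genes, and calls that change without these mice are given with both values. B cell marker genes varied widely within every diet. The sum of 8 such genes ran from 6.97 to 240 CPM in mice fed 0% RPS, 4.28 to 357 CPM at 2%, 9.93 to 161 CPM at 5%, and 17.6 to 329 CPM at 10%, and its part in the results below is given where it moved with them. In a bulk sample, fewer cells of a type and less RNA per cell cannot be told apart.

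Of the 56 genes, 31 passed edgeR's filter on low counts and were tested, 20 ligands and 11 receptors. The filter asks for a minimum level in as many mice as one diet holds, whichever diet they belong to, so that counts and medians over the tested genes are given as description. Tested genes held 218 (Ccr4) to 44223 counts (Cx3cl1) over the 20 mice. The other 25 were not tested. Ccl21b, Ccl21d, Ccl21e, Ccl21f, Ccl27b, and Ccr10, 6 genes, had 0 counts in every mouse. The remaining 19 had 2 to 147 counts in total over all mice and were Cxcl3 (2 counts), Ccr1l1, Cxcr6, Ccl1, Cxcl11, Cxcr2, Ccr3, Cxcl17, Ccr8, Cxcl5, Ccl27al, Cxcl2, Ccl2, Cxcl10, Ccl17, Ccl3, Ccl4, Ccl24, and Cxcl1 (147 counts). Thus Ccl2, the main ligand of Ccr2, and the macrophage ligands Ccl3 and Ccl4 had too few counts to be tested. So had all 4 neutrophil-attracting CXC ligands (Cxcl1, Cxcl2, Cxcl3, and Cxcl5), whose levels summed to 0 to 2.69 CPM in a mouse. The highest sum was that of mouse 1 at 0% RPS, with 37 counts each of Cxcl1 and Cxcl2 and 9 of Cxcl5, and mouse 5 at 10% RPS had 29 counts of Cxcl1 (1.09 CPM), all above the limit that a count of 0 allows. Ccl21 and Ccl27 have near-identical copies in the mouse genome, and how reads that match several copies were counted is not given in the sources used here, so that the values of Ccl21a and Ccl27a, and the zeros of their copies, are uncertain.

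Many family members sit next to each other in the genome (GRCm39, gene coordinates from GENCODE). On chromosome 9, Ccr9, Ccr1, and Ccr2 lie in one cluster of receptor genes. Ccr2 spans 123901982 to 123913594 on the forward strand. On chromosome 11, Ccl2, Ccl7, Ccl11, Ccl12, Ccl8, and Ccl1 lie between 81926397 and 82196516, and Ccl5, Ccl9, Ccl6, Ccl3, and Ccl4 between 83416602 and 83555509. Ccl8 spans 82006007 to 82007625 on the forward strand of chromosome 11, 11540 bases after the end of Ccl12. Some exons overlap genes on the opposite strand, and the strand setting of the counting is not given in the sources used here. Cxcl16 shares 84.8% of its exonic bases with such genes and Ccr6 46.7%, and reads of these stretches could then not be assigned to one gene.

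The promoters of 5 genes on which the results turn are shown as the 250 bases before the RefSeq transcription start in build GRCm38.p6, which is an earlier build than that of the gene coordinates above. Ccl8 and Ccr2 are shown because they passed the test of diet, Ccl6 because all its mice at 5% and at 10% RPS lay above those at 0%, and Ccl20 and Cxcl13 because they varied widely between mice of one diet. Capitals mark matches on either strand to TATAAA (the TATA box), AGGAAG (a core bound by ETS factors such as PU.1), TTCNNNGAA (a STAT site), or the NF-kB consensus.
Ccl8 promoter, chr11:82114935-82115184, forward strand: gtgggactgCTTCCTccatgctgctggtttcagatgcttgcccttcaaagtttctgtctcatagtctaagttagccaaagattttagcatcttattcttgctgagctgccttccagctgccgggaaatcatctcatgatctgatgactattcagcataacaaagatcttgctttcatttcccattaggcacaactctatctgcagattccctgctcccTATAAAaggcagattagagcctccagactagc
Ccr2 promoter, chr9:124101933-124102182, forward strand: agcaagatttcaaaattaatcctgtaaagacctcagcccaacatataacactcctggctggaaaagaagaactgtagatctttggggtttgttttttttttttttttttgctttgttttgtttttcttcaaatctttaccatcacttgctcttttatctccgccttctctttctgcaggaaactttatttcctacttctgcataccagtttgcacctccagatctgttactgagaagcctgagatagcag
Ccl6 promoter, chr11:83593088-83593337, reverse strand: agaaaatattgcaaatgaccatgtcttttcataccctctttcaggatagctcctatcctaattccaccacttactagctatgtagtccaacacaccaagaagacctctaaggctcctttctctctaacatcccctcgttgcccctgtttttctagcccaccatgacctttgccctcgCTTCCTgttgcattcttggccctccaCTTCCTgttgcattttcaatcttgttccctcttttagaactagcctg
Ccl20 promoter, chr1:83116516-83116765, forward strand: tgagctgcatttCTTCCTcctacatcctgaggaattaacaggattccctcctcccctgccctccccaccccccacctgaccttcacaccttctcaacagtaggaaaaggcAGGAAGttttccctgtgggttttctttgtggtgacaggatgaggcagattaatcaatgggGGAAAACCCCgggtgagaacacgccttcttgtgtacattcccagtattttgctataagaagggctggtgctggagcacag
Cxcl13 promoter, chr5:95956689-95956938, forward strand: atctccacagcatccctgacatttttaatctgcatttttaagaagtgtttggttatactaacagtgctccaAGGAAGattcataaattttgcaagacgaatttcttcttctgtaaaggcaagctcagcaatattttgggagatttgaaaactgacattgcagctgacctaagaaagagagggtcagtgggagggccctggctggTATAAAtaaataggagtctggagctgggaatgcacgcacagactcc
The Ccl8 promoter holds TATAAA from position -32 to -27 relative to the start and an AGGAAG on the reverse strand. TATAAA also stands in the Cxcl13 promoter, from -46 to -41, beside 1 AGGAAG. In the Ccl6 promoter AGGAAG occurs at 2 places, both on the reverse strand, and in the Ccl20 promoter at 2 places, with an NF-kB match from -80 to -71. None of these letters occurs in the Ccr2 window. Over all 27025 promoters of this length in RefSeq, 13.0% held TATAAA, 29.2% AGGAAG, 7.18% TTCNNNGAA, and 7.01% the NF-kB consensus. Promoters were matched by symbol for 39 of the 56 genes, of which 9 held TATAAA, 18 AGGAAG, 4 TTCNNNGAA, and 9 the NF-kB consensus. These matches describe letters in a window and are not measured binding sites.

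Levels were compared between genes per kilobase of exonic sequence. Averaged over the 20 mice, the highest ligands were Cx3cl1 at 18.8 CPM per kilobase, Ccl6 at 15.1, Ccl28 at 10.2, Cxcl13 at 8.98, and Ccl9 at 7.42. The highest receptors were lower, with Cxcr4 at 3.86 CPM per kilobase, followed by Ccr1 at 2.74, Cx3cr1 at 1.53, Cxcr5 at 1.5, and Ccr6 at 1.10. These means pool diets whose means differed, from 6.5 CPM in mice fed 0% RPS to 18.2 CPM at 10% for Cxcl13, from 2.86 to 8.68 CPM for Cxcr5, and from 1.18 to 5.22 CPM for Ccr6, so that the places of these genes in the order depend on the diet. Ranges over mice overlapped for all neighbours in these orders, for example 16.1 to 24.8 CPM per kilobase for Cx3cl1 and 9.59 to 20.2 for Ccl6. The length used changed this order. Ccl25, named here after its values were seen, stood at 1.91 CPM per kilobase over the union of its annotated exons but at 26.5, above every other member, over the length of its canonical transcript, an alternative chosen after seeing the data. On that scale Cx3cl1 stood at 22.5, Ccl6 at 19.0, Ccl28 at 13.6, and Ccl20 at 11.6 CPM per kilobase (6.53 over the union of exons), so that Ccl20 also entered the 5 highest ligands, while Cxcl13 (8.96) went to rank 6 and Ccl9 (7.67) to rank 8.

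**Figure D1:**
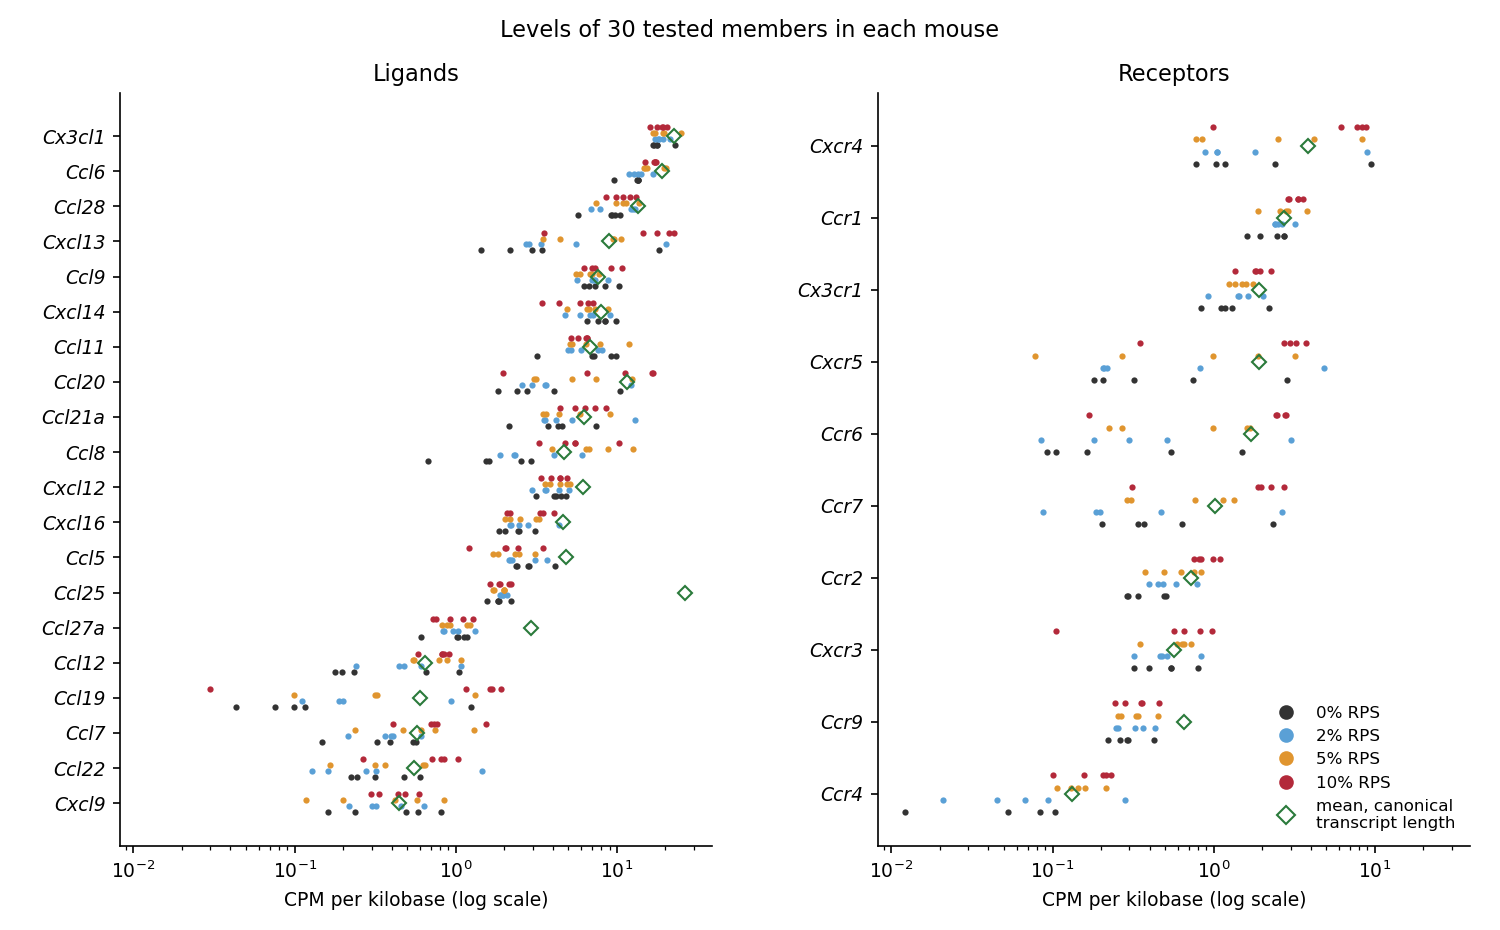
Level of 30 of the tested genes in each of the 20 mice, in CPM per kilobase of the union of exons on a log scale (a mouse with 0 counts is not drawn), with the diet as colour and the mean over the canonical transcript length as an open diamond. Ligands such as Cx3cl1 and Ccl6 form tight groups, while Ccl19, Cxcr5, and Ccr6 spread over more than a factor of 10 within a diet, and the diamond of Ccl25 lies far to the right of its points.

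How steady a gene was between mice differed greatly among the 31 tested genes. Ccl25 and Cx3cl1 had the lowest coefficients of variation over the 20 mice, 9.1% and 11.7% of the mean, whereas Ccl19 and Cxcr5 had the highest, 116% and 101%. Cx3cl1 averaged 74.6 CPM and was the most abundant member by counts. Its levels were 70.4, 70.7, 66.2, 66.9, and 90.8 CPM in mice fed 0% RPS and 63.9, 76.7, 80.7, 70.5, and 75.4 CPM at 10%, a log2 difference of 0.01 (SE 0.11, edgeR adjusted p = 0.981). Ccl25, the ligand of Ccr9, averaged 23.3 ± 2.86 CPM at 0% RPS, 24.5 ± 0.932 at 2%, 23.6 ± 1.87 at 5%, and 24.4 ± 2.94 at 10% (SD, n = 5 each). For Ccl25 the log2 fold change at 10% RPS was 0.07 (SE 0.09), so that neither of these ligands differed by more than its standard error.

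The comparison of 10% with 0% RPS asks what the highest dose of starch changed. A gene was called past the threshold when its adjusted p was at most 0.05 and its fold change at least 1.5, with edgeR's quasi-likelihood test and Benjamini-Hochberg adjustment over all 15348 genes tested. Ccr2, the receptor of blood monocytes, and Ccl8, a CC ligand made by tissue macrophages, rose, and they were the only 2 of the 31 genes past the threshold. Of all genes tested, 0.547% were past it in the higher direction. Expression of Ccr2 was 2.34-fold and that of Ccl8 3.17-fold as high at 10% as at 0% RPS.

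Ccr2 measured 2.28, 3.42, 3.34, 1.98, and 1.95 CPM in the mice fed 0% RPS and 3.07, 3.30, 3.95, 2.70, and 5.35 CPM at 2%. At 5% it measured 3.32, 5.61, 4.25, 2.55, and 5.09 CPM, and at 10% 5.12, 5.65, 7.36, 5.47, and 6.71 CPM. All 5 mice fed 10% RPS lay above all 5 fed 0%, and the 2% and 5% mice overlapped both. Means were 2.59 ± 0.73, 3.68 ± 1.04, 4.16 ± 1.25, and 6.06 ± 0.938 CPM (SD, n = 5) from the lowest to the highest dose. The log2 fold change at 10% was 1.23 (SE 0.23, edgeR adjusted p = 0.0235). Without mouse 3 of the 10% group, the highest of all 20, it was 1.15 with an adjusted p of 0.0810, and it stayed past the threshold without any one of the other 9 mice of both diets.

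Ccl8 measured 1.5, 0.796, 0.825, 1.31, and 0.344 CPM at 0% RPS and 2.09, 1.18, 1.20, 0.964, and 3.14 CPM at 2%. At 5% RPS it measured 2.03, 4.52, 3.43, 3.33, and 6.45 CPM, and at 10% 2.82, 2.84, 5.28, 1.70, and 2.44 CPM. Every mouse fed 5% or 10% RPS lay above every mouse fed 0%, and the highest mean was that of the 5% group. Means were 0.955 ± 0.457, 1.72 ± 0.907, 3.95 ± 1.65, and 3.02 ± 1.35 CPM (SD, n = 5) over the 4 diets. At 10% the log2 fold change was 1.66 (SE 0.41, edgeR adjusted p = 0.0405). This call was close to the threshold and was lost in 7 of 10 fits when mice were left out singly, with adjusted p-values between 0.0225 and 0.144, being kept only without mouse 1 or 2 of the 0% group or mouse 4 of the 10% group.

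**Figure D2:**
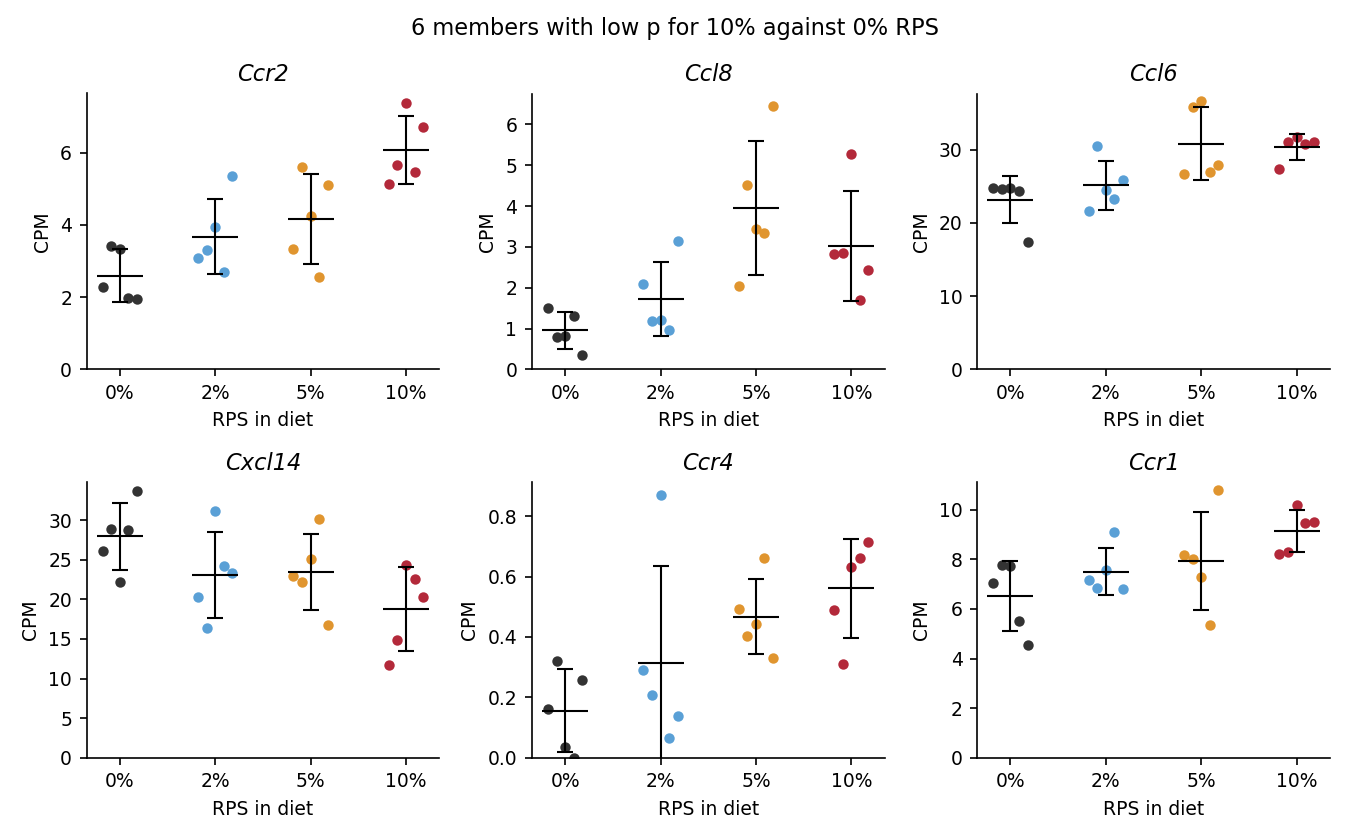
Level in CPM of 6 genes with a low p for 10% against 0% RPS in each mouse (points), with the mean (long bar) and SD (whiskers, cut off at 0) of the 5 mice of each diet. Ccr2 rises to between 5.12 and 7.36 CPM at 10% RPS, Ccl8 is highest at 5% RPS, and Cxcl14 is the one gene of the 6 whose mean is lower at 10% than at 0%.

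Ccl6, an abundant CC ligand of myeloid cells that acts through Ccr1, measured 24.7, 24.6, 24.7, 24.3, and 17.4 CPM at 0% RPS and 21.6, 30.5, 24.5, 23.2, and 25.8 CPM at 2%. At 5% it measured 26.7, 35.8, 36.7, 27.0, and 27.9 CPM, and at 10% 27.3, 31.1, 31.7, 30.8, and 31.1 CPM. The mice of the 5% and the 10% group all lay above those of the 0% group, with little spread at 10%. The difference was small, at a log2 fold change of 0.39 (SE 0.12, edgeR adjusted p = 0.0778). Ccr1 was separated at 10% only, with 7.03, 7.76, 7.73, 5.51, and 4.56 CPM at 0% RPS, 8.19, 8.03, 7.30, 5.35, and 10.8 CPM at 5%, and 8.23, 8.29, 10.2, 9.47, and 9.49 CPM at 10%. The log2 fold change of Ccr1 was 0.49 (SE 0.17, edgeR adjusted p = 0.123). Thus Ccl6, Ccl8, Ccr1, and Ccr2, 4 of the 31 genes, had all mice at 10% RPS above all mice at 0%, as did 1.68% of all genes tested.

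Other receptors of myeloid and T cells had higher estimates that did not pass the threshold. Ccr4, a receptor of helper and regulatory T cells, was near the detection limit, at 0.163, 0.319, 0.0375, 0, and 0.258 CPM at 0% RPS and 0.488, 0.310, 0.632, 0.660, and 0.713 CPM at 10%. Its log2 fold change was 1.81 (SE 0.62, edgeR adjusted p = 0.120), and 2.10 with an adjusted p of 0.0399 without the 3 mice of high mitochondrial share. Cx3cr1, the fractalkine receptor of resident gut macrophages, measured 5.14, 10.3, 6.04, 5.44, and 3.87 CPM at 0% RPS and 8.51, 6.30, 8.41, 10.5, and 8.97 CPM at 10% (log2 fold change 0.47, SE 0.22, edgeR adjusted p = 0.248). The groups overlapped through mouse 2 of the 0% group, and without it the log2 fold change of Cx3cr1 was 0.74 with an adjusted p of 0.0427. Ccl7, a further ligand of Ccr2, measured 0.456, 0.119, 0.263, 0.436, and 0.316 CPM at 0% RPS and 0.593, 0.620, 0.569, 0.330, and 1.24 CPM at 10% (log2 fold change 1.05, SE 0.43, edgeR adjusted p = 0.184).

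Cxcl14, a CXC ligand of epithelial and stromal cells, was the member with the lowest estimate. It measured 26.1, 28.9, 22.2, 28.8, and 33.7 CPM in mice fed 0% RPS and 11.7, 14.9, 24.3, 22.5, and 20.3 CPM at 10%. The groups overlapped, with 2 of the 10% mice inside the range of the 0% mice. The log2 fold change was -0.58 (SE 0.19, edgeR adjusted p = 0.114). With the B cell marker sum as a covariate it was -0.84 with an adjusted p of 0.0354, and with a macrophage marker sum, a covariate chosen after seeing the data, -0.78 with an adjusted p of 0.0404.

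Over the whole family, 26 of the 31 tested genes had a higher and 5 a lower estimate at 10% RPS, with a median log2 fold change of 0.49, where all genes tested divided into 7808 higher and 7540 lower with a median of 0. With DESeq2's size factors the division was 25 higher and 5 lower, Cx3cl1 being at 0. At an unadjusted p under 0.05 there were 11 higher members (9.74% of all genes were higher at that level) and 1 lower member, Cxcl14 (9.75% of all genes were lower). All 11 tested receptors had a higher estimate, with a median of 1.12, and 15 of 20 ligands, with a median of 0.32. With the B cell marker sum as a covariate, 17 members were higher and 14 lower with a median of 0.1, as described below. By role, the 7 CC receptors had a median log2 fold change of 1.23 and the 4 CXC and CX3C receptors 0.79. The 4 tested lymphoid homing ligands (Cxcl12, Cxcl13, Ccl19, and Ccl21a) stood at a median of 1.01, the 8 tested CC ligands of monocytes, eosinophils, and T cells at 0.58, and the 7 mucosal and epithelial ligands at 0.07. Ccl21a had a log2 fold change of 0.53 (edgeR adjusted p = 0.448), which was 0.81 with an adjusted p of 0.0465 without the 3 mice of high mitochondrial share. Its slope over the dose was 0.040 per percent (adjusted p 0.563) and 0.080 (adjusted p 0.0307) without them. Cxcl9, the 1 ligand of Cxcr3 that was tested, had a log2 fold change of -0.08 (SE 0.46).

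**Figure D3:**
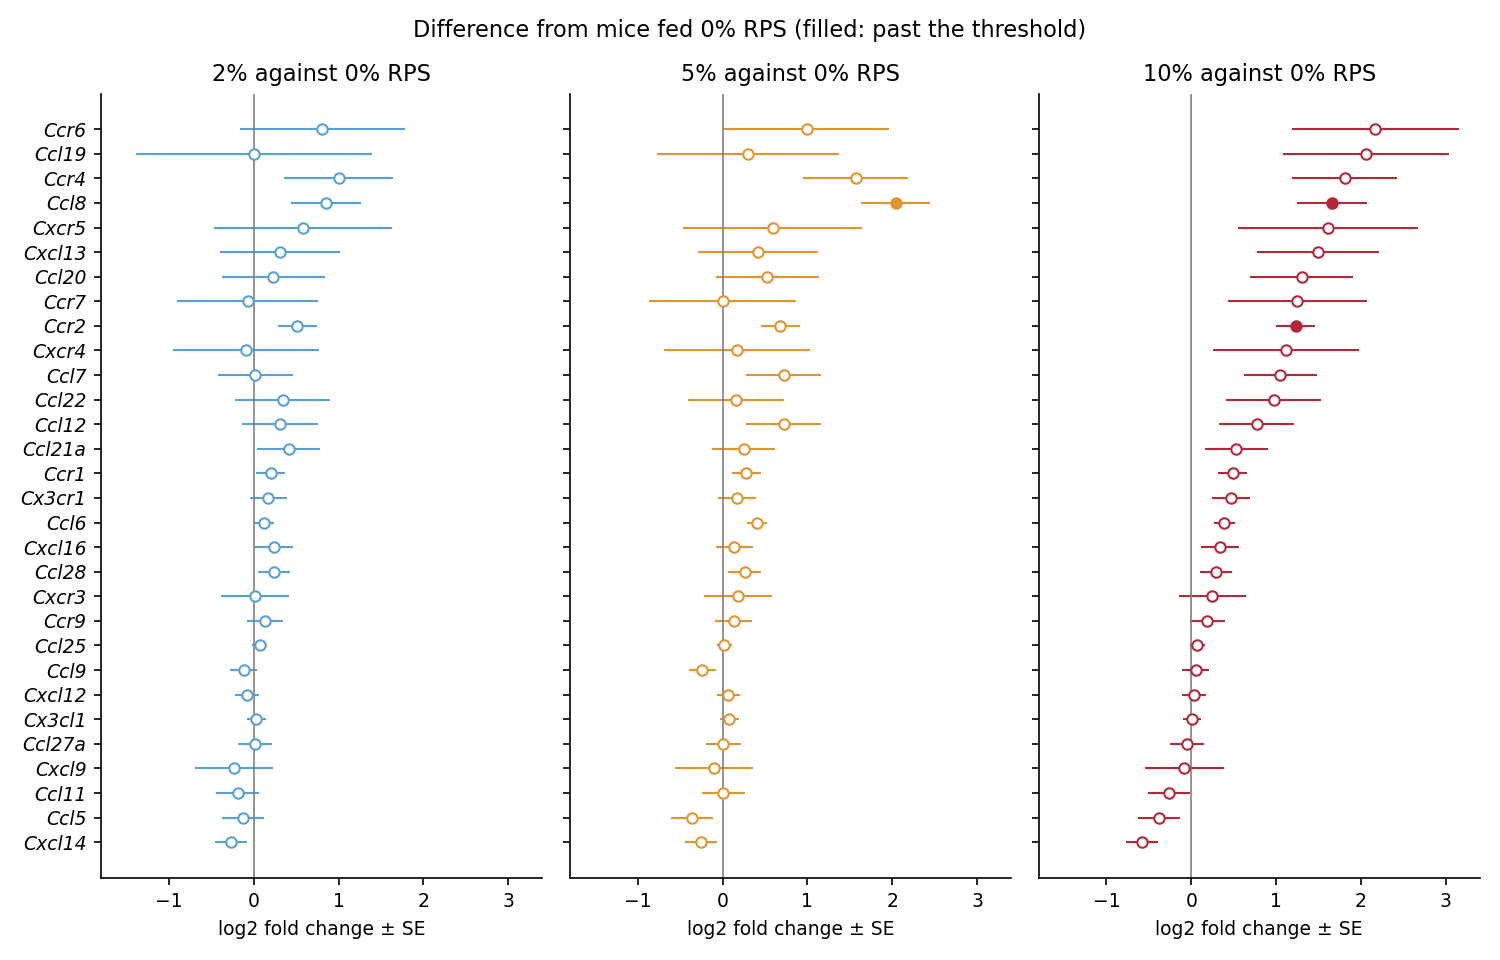
Log2 fold change and SE from edgeR for 30 of the tested genes at 2%, 5%, and 10% RPS, each against the same 5 mice fed 0% RPS, ordered by the value at 10%. Filled points, Ccl8 at 5% and Ccl8 and Ccr2 at 10%, are past the threshold, and the widest error bars belong to Ccl19, Cxcr5, and Ccr6.

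Lower doses were compared with the same 5 mice fed 0% RPS, so the comparisons share these controls. At 5% RPS, Ccl8 was the 1 member past the threshold, where 0.0977% of all genes were past it in the higher direction. Its level was 4.12-fold that at 0% RPS, a log2 fold change of 2.04 (SE 0.41, edgeR adjusted p = 0.0425). The call rested on the full set of mice. It was lost when any 1 of 9 of the 10 mice was left out (adjusted p up to 0.136) and was kept only without mouse 1 of the 5% group (adjusted p 0.0247). It was lost too without the mice of high mitochondrial share (log2 fold change 1.88, adjusted p 0.0737) or with the macrophage marker sum as a covariate (2.11, adjusted p 0.0645). Ccl6, with a log2 fold change of 0.41, Ccr2, with 0.68, and Ccr4, with 1.57, were the other members at an unadjusted p under 0.05 (6.74% of all genes were higher at that level), with edgeR adjusted p-values of 0.101, 0.175, and 0.258. Ccl6, Ccl8, and Ccr4 had all 5 mice at 5% RPS above all 5 at 0%, as did 1.53% of all genes. The estimate was higher for 26 and lower for 5 of the 31 genes, with a median of 0.18. All genes tested divided into 7596 higher and 7752 lower, with a median of 0.

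At 2% RPS no family member and no other gene was past the threshold in edgeR's test (0% of all genes). At an unadjusted p under 0.05, 2 members were higher, Ccr2 with a log2 fold change of 0.51 and Ccl8 with 0.85 (2.58% of all genes were higher at that level), both with an adjusted p of 0.849. DESeq2 also called 0 members at 2%. Estimates were higher for 22 and lower for 9 members, with a median of 0.12, where all genes tested divided into 7823 higher and 7525 lower with a median of 0.

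A linear trend over the dose was fitted to all 20 mice. Ccr2 was the 1 member with a trend at an adjusted p of at most 0.05, rising by 0.112 on the log2 scale per percent of RPS (SE 0.021, edgeR adjusted p = 0.0275), where 0.378% of all genes rose. The trend was lost with the macrophage marker sum as a covariate (slope 0.109, adjusted p 0.0520). It was also lost when mouse 1, 4, or 5 of the 0% group or mouse 1 or 3 of the 10% group was left out (adjusted p 0.0583, 0.0652, 0.0567, 0.0593, and 0.0967). Slopes of Ccl6 (0.041 per percent, adjusted p 0.0767), Ccl8 (0.16, adjusted p 0.102), and Ccr4 (0.152, adjusted p 0.15) did not pass, and that of Ccr4 was 0.205 (adjusted p 0.0276) without the 3 mice of high mitochondrial share. At an unadjusted p under 0.05, 12 members had a positive slope (9.37% of all genes did). A negative slope at that level was found for 1 member and for 1454 of all 15348 genes. A joint edgeR test of any difference among the 4 diets called no member at an adjusted p of 0.05 (0.0912% of all genes were called). Ccr2 and Ccl8 both reached 0.0939, and Ccl6 and Ccr4 were among the members that also had an unadjusted p under 0.05 (11.1% of all genes did). DESeq2's likelihood ratio test called 2.95% of genes (473 of 16016), among them 3 members, Ccl6, Ccl8, and Ccr2.

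Among the largest estimates at 10% RPS were those of genes of lymphoid tissue that varied within every diet. Ccr6, the receptor of Ccl20 on B cells and T helper cells, measured 1.33, 3.66, 0.225, 0.403, and 0.258 CPM at 0% RPS and 6.03, 0.413, 6.79, 5.98, and 6.90 CPM at 10%. Mouse 2 of the 10% group lay among the low mice of the 0% group, and the log2 fold change of 2.17 had an SE of 0.98 (edgeR adjusted p = 0.235). Cxcl13, the ligand that draws B cells into follicles, measured 3.94, 20.9, 2.51, 3.42, and 1.66 CPM at 0% RPS, 3.26, 3.13, 23.2, 6.43, and 3.91 CPM at 2%, 11.1, 5.10, 12.2, 10.9, and 4.0 CPM at 5%, and 16.7, 4.08, 20.3, 25.8, and 24.1 CPM at 10%. Single mice of the 0% and 2% groups thus reached the level of most mice at 10%, and the log2 fold change of 1.49 (SE 0.72) had an edgeR adjusted p of 0.262, which fell to 0.0369 with a log2 fold change of 2.66 when mouse 2 of the 0% group was left out. Its receptor Cxcr5 measured 2.47, 9.48, 0.600, 1.07, and 0.689 CPM at 0% RPS and 9.10, 1.16, 12.4, 10.8, and 9.94 CPM at 10% (log2 fold change 1.61, SE 1.06, edgeR adjusted p = 0.417).

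The same mice stood out for Cxcr4, the receptor of Cxcl12, at 4.36, 17.2, 2.14, 1.88, and 1.41 CPM at 0% RPS and 11.2, 1.81, 15.2, 16.1, and 14.1 CPM at 10% (log2 fold change 1.12, SE 0.86, edgeR adjusted p = 0.498). Ccr7, Ccl19, Ccl20, and Ccl22 followed this pattern too and are named here after their values were seen. Ccr7, which guides lymphocytes and dendritic cells into lymphoid tissue, measured 1.27, 4.62, 0.675, 0.739, and 0.402 CPM at 0% RPS and 3.90, 0.620, 5.40, 3.72, and 4.50 CPM at 10%. Ccl20, an epithelial ligand made over follicles, measured 3.94, 14.9, 5.78, 2.59, and 3.39 CPM at 0% RPS and 9.31, 2.79, 15.9, 23.8, and 23.5 CPM at 10%. Mouse 2 of the 0% group was the highest of its diet and mouse 2 of the 10% group the lowest of its diet for both. Ccl19, a ligand of Ccr7 close to the detection limit, had 0 counts in 2 mice and 0.0375 to 1.08 CPM at 0% RPS against 0.0258 to 1.65 CPM at 10%. The log2 fold changes were 1.25 (SE 0.82) for Ccr7, 1.3 (SE 0.61) for Ccl20, 2.06 (SE 0.98) for Ccl19, and 0.97 (SE 0.56) for Ccl22, a dendritic cell ligand of Ccr4, with edgeR adjusted p-values from 0.253 to 0.420. Without mouse 2 of the 0% group they were 2.23 for Ccr7, 1.94 for Ccl20, 3.83 for Ccl19, and 1.21 for Ccl22, and those of Ccr6, Cxcr5, and Cxcr4 were 3.22, 2.84, and 2.25. None of these 7 genes passed the threshold without it either, with adjusted p-values from 0.0541 (Ccl19) to 0.258 (Ccl22).

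These levels moved with B cell marker genes. The sum of the 8 B cell genes was 37.7, 240, 7.01, 22.8, and 6.97 CPM in the mice fed 0% RPS and 7.79, 4.28, 357, 48.3, and 12 CPM at 2%. At 5% it was 83.5, 9.93, 143, 161, and 11.4 CPM, and at 10% 256, 17.6, 329, 275, and 312 CPM. It was therefore high in 4 of the 5 mice at 10% RPS and in 1 of 5 at 0%, and the 2 groups overlapped (difference between the mean log2 sums 2.72, exact permutation test, two-sided, p = 0.0794, smallest possible p 0.00794). All 8 genes were tested and none was past the threshold. Follicular dendritic cell genes had a sum of 4.28 to 45.8 CPM at 0% RPS and 5.50 to 75.6 CPM at 10% (exact permutation p = 0.0794).

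**Figure D4:**
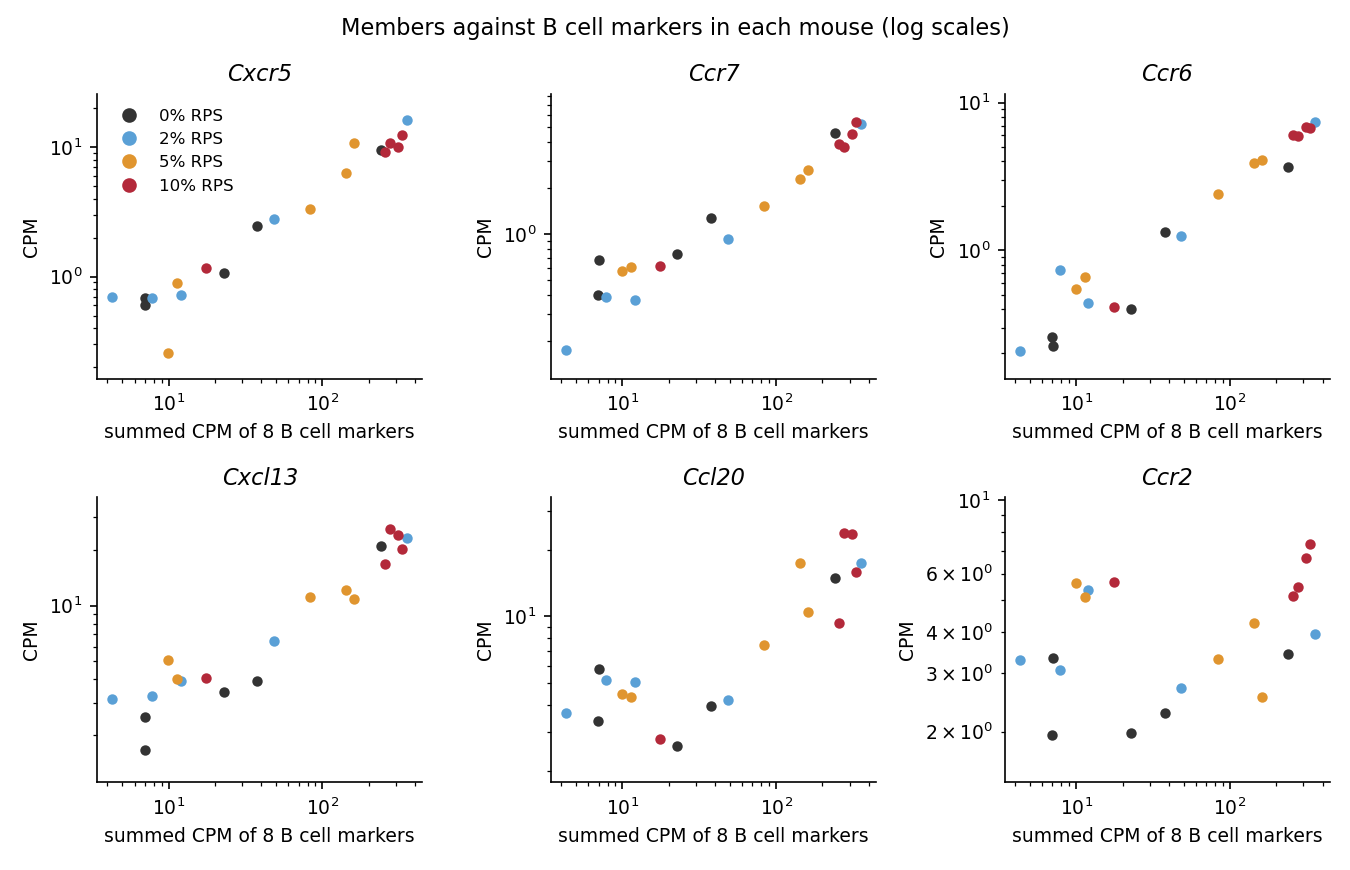
CPM of 6 genes against the summed CPM of 8 B cell markers in the 20 mice, both on log scales, with the diet as colour. Cxcr5, Ccr7, Ccr6, Cxcl13, and Ccl20 climb with the sum in mice of every diet, and Ccr2 does not, its 10% points lying between 5.12 and 7.36 CPM at sums from 17.6 to 329 CPM.

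The relation was tested within diets, after subtracting each diet's mean from the log2 CPM values, by permuting mice within their diet (100000 permutations, two-sided). It was chosen after seeing the data and covered 62 relations, the 31 genes with the B cell and the macrophage sum. Over the 20 mice, deviations of Ccr7 had r = 0.98 with those of the B cell sum, Ccr6 and Cxcr5 0.97, Cxcr4 0.96, and Cxcl13 0.95, each with a permutation p of 2e-05, the smallest these permutations can give, and an adjusted p of 0.000248. Spearman's rho was 0.97 for Ccr7 and 0.94 for Cxcr5, and r was 0.97 for both without the 2 mice farthest from the median of the sum. In all, 16 members had an adjusted p within 0.05, 15 of them with a positive r, and the weakest of these relations had an r of 0.55 from 0. Of all 15348 genes tested, 7.16% had an r at least that high and 3.33% one at least that far below 0. Ccl11 (eotaxin), an eosinophil ligand of stromal cells, was the exception with r = -0.68 (rho -0.75, adjusted p 0.0129, permutation test, r = -0.76 without the 2 farthest mice).

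Ccr2 (r = -0.08, permutation p = 0.775), Ccl8 (r = -0.17, p = 0.522), Ccl6 (r = -0.02, p = 0.937), and Ccr1 (r = 0.09, p = 0.748) did not follow the B cell sum within diets. Nor did they follow the sum of 8 macrophage genes, which 18 other members did, all with a positive r of at least 0.47. Of all genes tested, 16.2% had an r with the macrophage sum at least that high and 19.8% one at least that far below 0. That sum ran from 83.8 to 135 CPM at 0% RPS and 108 to 137 CPM at 10% (difference between the mean log2 sums 0.29, exact permutation p = 0.0873). For Ccr2 and Ccl8, r with the macrophage sum was 0.08 and -0.07 (permutation p = 0.751 and 0.816).

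With the B cell sum as a covariate, the log2 fold change at 10% RPS was 1.27 for Ccr2 (edgeR adjusted p = 0.0277) and 1.86 for Ccl8 (adjusted p 0.0493), near the values without it. It was 0.39 for Ccr6, 0.44 for Cxcl13, 0.22 for Ccl20, and 0.46 for Ccl19. Members whose sign turned included Cxcr4 (-0.31), Cxcr5 (-0.17), Ccr7 (-0.27), and Ccl22 (-0.13). In this fit 17 members had a higher and 14 a lower estimate, with a median of 0.10. Of the 11 receptors, 6 had a higher one, with a median of 0.20. The family-wide direction at 10% RPS thus did not hold with this covariate. However, the B cell sum itself had a higher mean at 10% than at 0% RPS (difference between the mean log2 sums 2.72). Members such as Ccr7 and Cxcr5 also followed it closely. Diet and B cell content therefore cannot be told apart for them in this fit. With the macrophage sum as a covariate, 24 were higher and 7 lower, with a median of 0.39. Ccr2 stayed past the threshold (1.20, adjusted p 0.0367) and Ccl8 was just outside it (1.74, adjusted p 0.0501).

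**Figure D5:**
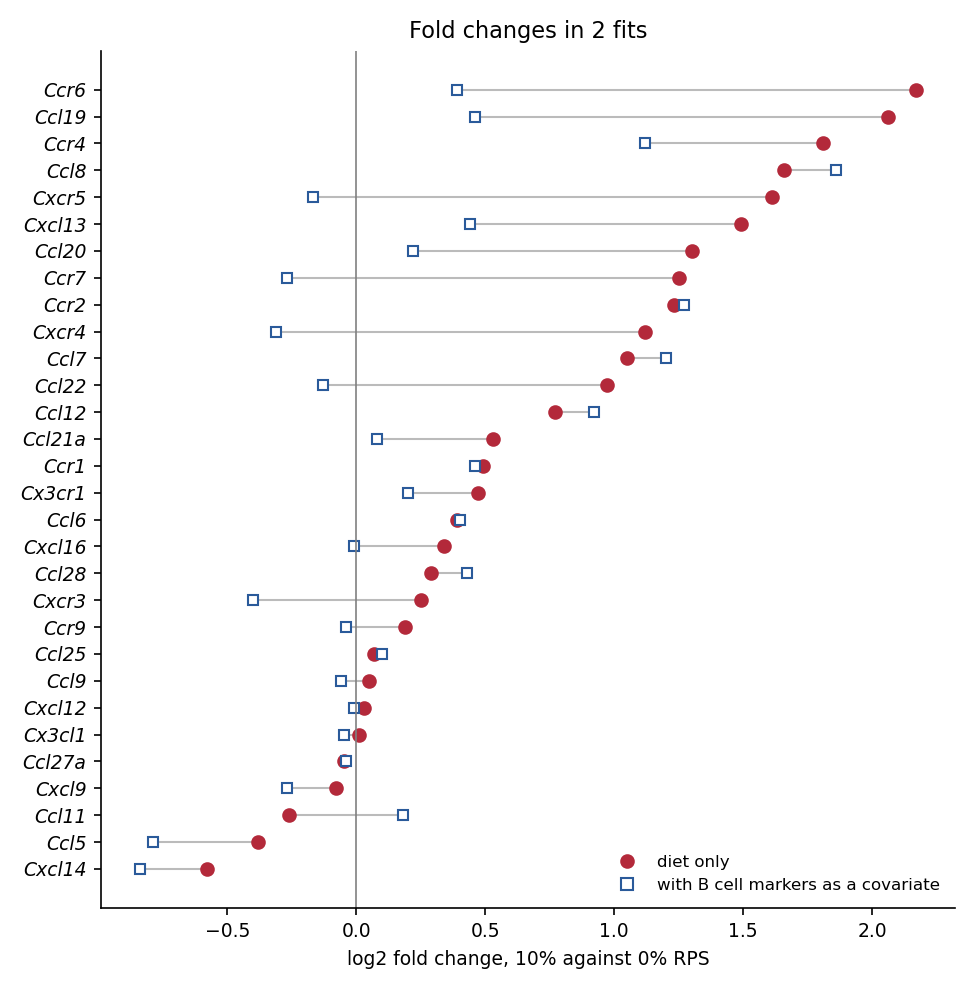
Log2 fold change at 10% against 0% RPS of 30 tested genes in 2 edgeR fits, with diet alone (filled circles) and with the B cell marker sum as a covariate (open squares), joined by a line. Ccr6, Ccl19, Cxcr5, Cxcl13, Ccl20, Ccr7, Cxcr4, and Ccl22 move by more than 1, while Ccr2 (1.23 and 1.27) and Ccl8 (1.66 and 1.86) keep their place.

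Ligands and their receptors were compared across mice in 20 listed pairs, of which 11 had both genes tested. Using the same within-diet deviations and permutations, 5 pairs passed after adjustment over the 11, of which 4 are described. Cxcl13 and Cxcr5 had r = 0.90 (rho 0.86, adjusted p 0.00066, permutation test), Ccl20 and Ccr6 0.85 (rho 0.80, adjusted p 0.00297), and Ccl19 and Ccr7 0.81 (rho 0.79, adjusted p 0.00447). Without the 2 mice farthest from the median of the ligand, r was 0.91, 0.86, and 0.81. All 6 genes also followed the B cell sum. Ccl22 and Ccr4 had r = 0.62 (rho 0.67, adjusted p 0.0403, permutation test), which was 0.38 without the farthest 2 and did not pass with a prior count of 0.5 or in 10 of 20 fits that left out 1 mouse.

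The remaining 6 pairs did not pass. Among them were the gut-homing pair Ccl25 and Ccr9 (r = 0.11, adjusted permutation p = 0.752), Cxcl12 and Cxcr4 (r = 0.22, adjusted permutation p = 0.521), and Cx3cl1 and Cx3cr1 (r = -0.15, adjusted permutation p = 0.683). The values of the other 3 were 0.51 for Ccl21a and Ccr7, 0.27 for Ccl6 and Ccr1, and 0.05 for Cxcl9 and Cxcr3. Ccl28, the mucosal ligand of Ccr10, could not be paired because Ccr10 had 0 counts, and whether this reflects the counting was not tested. It measured 48.3, 46.5, 52.0, 45.7, and 28.6 CPM at 0% RPS and 49.0, 53.9, 65.5, 42.5, and 60.1 CPM at 10%, groups that overlapped (log2 fold change 0.29, edgeR adjusted p = 0.412). Ccl9, a CC ligand whose gene neighbours Ccl6, had a log2 fold change of 0.05 (SE 0.16).

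The rest of the chemokine pathway was followed in lists of genes outside the family. Of 9 other chemokines and atypical receptors, 7 were tested and none was past the threshold at 10% RPS, with a median log2 fold change of -0.03. Among 24 signalling genes downstream of the receptors, 6 were higher and 2 lower at an unadjusted p under 0.05 (9.74% and 9.75% of all genes), none past the threshold, with a median of 0.21. The 6 were Was (log2 fold change 1.43), Dock2 (1.41), Fgr (1.04), Vav1 (0.97), Pik3cd (0.89), and Pik3cg (0.82), all known from leukocyte signalling, and the 2 were Rac1 (-0.34) and Gnb1 (-0.20). The 10 desensitization genes had 1 higher (Arrb1, 0.24) and 1 lower (Rgs16, -0.68) at that level, shares near those of all genes, and a median of 0.06. The 7 processing genes had none, with a median of 0.10.

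Sums of marker genes of other cell types were compared between 0% and 10% RPS in the same way, and their part in the family's results was not tested beyond the covariates above. Goblet cell genes summed to 7040 to 9900 CPM at 0% RPS and 6020 to 7000 CPM at 10% (exact permutation p = 0.00794). Smooth muscle genes summed to 2440 to 5670 CPM against 3990 to 6690 CPM (p = 0.0397, exact permutation test), with Actg2 past the threshold, and fibroblast genes to 403 to 559 CPM against 502 to 788 CPM (p = 0.0317, exact permutation test). At 5% RPS, where Ccl8 was highest, both sums had their highest means, with fibroblast genes at 567 to 858 CPM, above every mouse fed 0%, and smooth muscle genes at 4150 to 9680 CPM, with Actg2 past the threshold there too. Sums of T cell (24.4 to 58.9 against 17.8 to 63.0 CPM), dendritic cell (12.8 to 24.8 against 17.2 to 29.2 CPM), and eosinophil genes (1.89 to 5.53 against 2.84 to 5.14 CPM) overlapped, with exact permutation p-values of 0.254, 0.0873, and 0.317. Neutrophil genes, with 2 of 7 tested, summed to 1.46 to 19.3 CPM against 2.30 to 3.72 CPM (exact permutation p = 0.317). These p-values are not adjusted. After Benjamini-Hochberg adjustment over the 16 cell type lists examined, the smallest was 0.127 (exact permutation test) and none passed 0.05.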

How the data were processed

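RNA was taken from cecum of 20 mice, 5 per diet, and its stranded mRNA libraries were sequenced from one end. The authors deposited raw read counts per gene, made by mapping reads to GRCm39 in CLC Genomics Workbench. Which annotation release and strand setting were used, and how multi-mapping reads were treated, is not given in the sources used here. Symbols came from GENCODE, in which 19827 of 19887 gene IDs were found and 60 were not. The members, gene lists, and alternatives were chosen with earlier results of these data known.

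Counts were tested as deposited with edgeR 4.0.16 (R 4.3.3, limma 3.58.1) on TMM-scaled libraries (factors 0.916 to 1.07), with robust quasi-likelihood F-tests over all 4 diets, contrasts against 0% RPS, a linear trend, and a joint test. Benjamini-Hochberg adjustment ran over the 15348 genes passing edgeR's filter (minimum count 10, minimum total 15). CPM per kilobase used the union of exons. Correlations used log2 CPM with a prior count of 2 and ran in scipy 1.17.1 (Python 3.11.15, numpy 2.4.6). Full values were given for members past a threshold, the 10 lowest p-values at 10% RPS, and the 5 highest ligands and receptors per length (16 members). Of these, 1 member is not reported here. Ccl25, Ccl20, Ccl19, Ccr7, and Ccl22 were added after their values were seen. DESeq2 1.42.0, sva 3.50.0, other filters, covariates, and leaving out each mouse were alternatives. The edgeR test was tested on simulated data of 15348 genes for 10% against 0% RPS. It called 76 of 100 genes changed 2-fold, 93 of 100 changed 4-fold, and 0 unchanged genes. Genes were simulated independently of each other, without the variation between mice that many members shared, so these shares need not hold for such members. No 2 libraries of 1 diet agreed within sampling noise (chi-square per degree of freedom 13.6 to 136 over 40 pairs), and each counted as 1 mouse, as labelled.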

Additional observations from a re-analysis of the deposited data

Results flagged for a closer look

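Within diets of 5 mice, 24 of 92 groups examined had 1 mouse set apart from the other 4 by a gap of more than 0.71 of the group's range. This cut-off sets apart about 5% of groups by chance only for normally distributed values, whereas CPM were used here without a log scale. No excess over chance can be read from the count. The groups are also not independent because the same mice recur. They include Ccl20, Ccl19, Ccr7, and Ccl22, which were named after their values were seen. Mouse 2 of the 0% RPS group was the highest of its diet for Cxcl13 (20.9 CPM, others 1.66 to 3.94), Cxcr4 (17.2, others 1.41 to 4.36), Cxcr5 (9.48, others 0.600 to 2.47), Ccl20 (14.9, others 2.59 to 5.78), Ccl19 (1.08, others 0.0375 to 0.101), and Ccr7 (4.62, others 0.402 to 1.27). Its B cell marker sum was also the highest, at 240 CPM against 6.97 to 37.7.

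Mouse 3 of the 2% RPS group, 1 of the 3 mice with a high mitochondrial share, stood apart for the same 6 genes, with 23.2 CPM of Cxcl13, 16.3 of Cxcr4, 16.2 of Cxcr5, 17.4 of Ccl20, 0.809 of Ccl19, and 5.27 of Ccr7. The other mice of that diet reached at most 6.43, 3.28, 2.76, 5.16, 0.174, and 0.932 CPM. This mouse was the highest too for Ccr6 (7.43 CPM, others 0.209 to 1.25), Ccr4 (0.869, others 0.0643 to 0.292), Ccl22 (3.56, others 0.313 to 0.779), and the B cell sum (357, others 4.28 to 48.3). Mouse 2 of the 10% RPS group was the lowest of its diet for Ccr6 (0.413 CPM, others 5.98 to 6.90) and the B cell sum (17.6, others 256 to 329). Mouse 3 of the 5% RPS group had the highest Ccl19 (1.14 CPM, others 0 to 0.283).

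Apart from this pattern, mouse 5 of the 0% RPS group, which also had a high mitochondrial share, had the lowest Ccl6 (17.4 CPM, others 24.3 to 24.7), the lowest Ccl28 (28.6, others 45.7 to 52.0), and the highest Cx3cl1 (90.8, others 66.2 to 70.7) of its diet. Mouse 1 of the 10% RPS group had the lowest Ccl6 (27.3 CPM, others 30.8 to 31.7).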

How the results depend on the processing

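At 10% against 0% RPS, 2 members and 160 genes in all were past the threshold. With DESeq2, 368 genes in all were past it (2.46% of those tested, against 1.04%). Among them were Ccr2 (DESeq2 adjusted p = 8.74e-05) and Ccl8 (DESeq2 adjusted p = 0.00271). Of members there was 1 (Ccr2) with only the 2 diets compared (98 genes in all) or with 1 surrogate variable (133 genes), and 4 (Ccl21a, Ccl8, Ccr2, and Ccr4) without the 3 mice of high mitochondrial share (317 genes). When each mouse was left out there were 0 (without mouse 3 at 10% RPS, 14 genes) to 5 (without mouse 2 at 0% RPS, 344 genes). At 5% RPS the number of members was 1 (30 genes in all), 0 with macrophage markers as a covariate (3 genes) or without the 3 mice (1 gene), and 0 to 1 when each mouse was left out (0 to 114 genes). At 2% RPS it was 0 under all alternatives run. For the trend, 1 member of 170 genes became 3 of 539 with the rank of the dose, 2 of 94 with B cell markers as a covariate, 4 with DESeq2 (4.84% of all genes, against 1.11%), 0 of 9 with macrophage markers, 3 of 888 without the 3 mice, and 0 to 4 when each mouse was left out (0 to 674 genes). For the 4 diets together, 0 members of 14 genes became 3 of 473 with DESeq2 and 0 to 2 when each mouse was left out (3 to 103 genes), and the 5 correlated pairs became 3 to 6. The macrophage covariate, the 3 mice, and the canonical length were chosen after seeing the data.

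Among the named members, the sign turned with B cell markers as a covariate for Cxcr4 (-0.31), Cxcr5 (-0.17), Ccr7 (-0.27), Ccl22 (-0.13), Cx3cl1 (-0.05), and Ccl9 (-0.06). Of the other tested members, it turned for Cxcr3 (-0.4), Ccr9 (-0.04), Cxcl16 (-0.01), Cxcl12 (-0.01), and Ccl11 (0.18). Among the named members, the sign also turned for Cx3cl1 with macrophage markers (-0.1) and when mice were left out (-0.03 to 0.11). For Ccl9 it turned without the 3 mice (-0.01) and when mice were left out (-0.07 to 0.17). Neither of these 2 estimates was larger than its standard error. Over the recomputed fold changes of named members at 10% RPS, 380 values kept their direction and side of the threshold, 11 fell short of it, 7 passed it anew, and 14 turned sign, and the cause was not tested. No paired analysis was possible because the labels give each mouse its own number, and the numbers 1 to 5 used here only follow the order of the samples. Ccr4 and Ccl19 had 0 counts in some libraries, where levels under 3 counts cannot be told from 0.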
